A study of Rattus norvegicus with 14 samples.

Results

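The 7 genes described here, Hmgcs1, Idi1, Fdps, Fdft1, Sqle, Cyp51 and Insig1, are cholesterol synthesis genes and targets of the transcription factor SREBP2. They were chosen by name and found by matching the accession of each array probe to rat RefSeq symbols, which gave 8 probes for the 7 genes among 18611 measured genes. Total RNA came from the skin of male CD hairless rats and was read on 14 Agilent arrays of 1 colour, 1 per animal. The exposed group held 6 rats kept under a 94 GHz field for 3 h per day on 3 days per week over 5.5 months, and the sham group held 8 sham-exposed rats. All animals shared strain, sex and housing by pairs. Ages are not given in the sources used here, nor which animals shared a cage, and p-values treat animals as independent. The comparison asked whether chronic exposure at this frequency alters gene expression in skin.

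Cells make cholesterol from acetyl units through mevalonate, isoprenoid diphosphates, squalene and a series of sterols. SREBP2 is held in the endoplasmic reticulum by Scap and the Insig proteins while sterol is plentiful. When sterol falls, SREBP2 moves to the Golgi, is cut by 2 proteases and enters the nucleus, where it acts with the factors NF-Y and Sp1 on the genes of the whole pathway. In skin, the epidermis uses newly made cholesterol together with ceramides and fatty acids for the lipid layers of the permeability barrier, and sebaceous glands make sterols and other lipids for sebum.

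The promoters are shown because they are the sequences through which SREBP2 and its partners are known to reach these genes. RefSeq promoters of build GRCr8, each running from 250 bases before to 50 bases after the gene's start, were found for 5 of the 7 genes, Sqle and Fdft1 being the others. Each is printed 5′ to 3′ on the gene's own strand. Capitals mark CCAAT, the box bound by NF-Y, on either strand (ATTGG is its reverse complement), and in Fdps also the letters TCACACGAG. The Hmgcs1 promoter lies at chr2:53382054-53382353 on the plus strand and that of Fdps at chr2:176804767-176805066 on the minus strand. The Idi1 promoter lies at chr17:66547475-66547774 on the minus strand, that of Cyp51 at chr4:30991443-30991742 on the plus strand and that of Insig1 at chr4:8057720-8058019 on the minus strand.
Hmgcs1: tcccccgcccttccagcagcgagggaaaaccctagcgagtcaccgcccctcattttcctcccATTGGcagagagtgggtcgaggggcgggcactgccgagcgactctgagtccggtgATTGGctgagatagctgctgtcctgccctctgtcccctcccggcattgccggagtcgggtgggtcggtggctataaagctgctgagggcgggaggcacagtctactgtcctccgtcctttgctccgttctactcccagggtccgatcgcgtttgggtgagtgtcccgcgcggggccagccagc
Idi1: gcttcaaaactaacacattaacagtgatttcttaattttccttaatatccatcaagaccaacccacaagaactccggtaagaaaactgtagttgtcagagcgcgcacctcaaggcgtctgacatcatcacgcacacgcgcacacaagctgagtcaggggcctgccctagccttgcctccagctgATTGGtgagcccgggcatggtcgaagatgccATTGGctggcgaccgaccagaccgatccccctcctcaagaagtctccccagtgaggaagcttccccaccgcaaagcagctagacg
Fdps: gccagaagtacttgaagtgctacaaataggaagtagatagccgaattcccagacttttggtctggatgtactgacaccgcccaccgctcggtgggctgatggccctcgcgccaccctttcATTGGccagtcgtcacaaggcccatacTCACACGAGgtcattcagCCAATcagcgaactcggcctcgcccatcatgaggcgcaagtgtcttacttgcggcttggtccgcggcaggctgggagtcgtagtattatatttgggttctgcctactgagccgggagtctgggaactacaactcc
Cyp51: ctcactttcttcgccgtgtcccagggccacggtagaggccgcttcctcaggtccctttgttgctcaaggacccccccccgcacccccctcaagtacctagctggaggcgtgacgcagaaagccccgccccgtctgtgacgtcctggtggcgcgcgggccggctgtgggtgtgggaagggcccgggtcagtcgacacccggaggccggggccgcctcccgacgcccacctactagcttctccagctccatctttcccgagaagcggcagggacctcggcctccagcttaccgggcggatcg
Insig1: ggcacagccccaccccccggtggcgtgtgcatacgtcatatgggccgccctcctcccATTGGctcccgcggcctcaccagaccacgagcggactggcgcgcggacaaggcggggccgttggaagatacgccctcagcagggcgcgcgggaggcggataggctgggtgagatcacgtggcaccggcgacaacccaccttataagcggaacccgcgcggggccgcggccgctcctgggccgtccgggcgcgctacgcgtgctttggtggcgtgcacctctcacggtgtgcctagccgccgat

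CCAAT stood in 4 of these 5 promoters, Cyp51 being the exception, against 37.5% of all 33469 RefSeq promoters of the same length. Hmgcs1, Idi1 and Fdps each held a pair of CCAAT boxes, and Insig1 held 1. The box GGGCGG, which Sp1 binds, stood in 4 of the 5 promoters on either strand, Idi1 being the exception, against 33.1% of all promoters. Neither box was particular to these genes. Among genes of neighbouring lists with a promoter, CCAAT stood in 12 of 16 for fatty acid synthesis and 11 of 13 for sterol storage and oxysterols. It stood in 8 of 13 for SREBP2 control and uptake (Insig1 among them), 7 of 12 for cholesterol efflux and 5 of 9 for isoprenoid branches. GGGCGG stood in 11, 8, 11, 6 and 6 of these genes, in the same order. A sterol regulatory element written as TCACNCCAC was in 0 of the 5 promoters and in 1.12% of all promoters. The variant TCACACGAG, described as the sterol element of the rat Fdps promoter, was searched after that result was seen. Its letters come from that promoter, so a match in Fdps was fixed in advance. The variant stood in Fdps at -103 to -95 from the gene's start, between CCAAT boxes at -130 to -126 and -85 to -81. It stood in 41 promoters of the whole table (0.123%). These matches describe letters in a short window and say nothing of the factors' binding in these animals.

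Values are log2 signals relative to the 75th percentile of each array, and differences are exposed minus sham. Each probe has its own brightness, so levels are compared between animals and never between genes. Every array showed all 8 probes well above background and none saturated. Exposed arrays had a 75th percentile between 1075 and 1966 scanner units, and in sham arrays it lay between 804.5 and 1967. Sham animal 6 had the lowest array signal and the lowest mean level of basal epidermis, adipocyte, Schwann cell and proliferation markers, so differences, spreads and correlations that it moves are also given without it. The arrays lay on 4 slides, with 2 sham arrays on slide 1, 2 exposed arrays on slide 2, 3 of each group on slide 3, and 1 exposed and 3 sham arrays on slide 4. The defining skin keratins Krt5, Krt14 and Krt1 and the sebaceous wax synthase Awat2 were well above background on all 14 arrays. A whole piece of skin was sampled, so fewer cells of a type and less RNA per cell cannot be told apart.

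No difference between exposed and sham skin larger than the spread between animals was detected in any of the 7 genes. The limma test with Benjamini-Hochberg adjustment over all genes called 0 of the 7, as it called 0 of 18611 genes (0%). At an unadjusted p under 0.05 it also gave 0 of the 7, beside 636 of all genes (3.42%). The differences of the 7 genes ran from -0.058 (Fdft1) to 0.17 (Insig1), and the exposed and sham ranges overlapped for each of them. Overlap was not counted over all genes, so it is no result particular to the 7. All 7 adjusted p-values were 1 in limma. Without sham animal 6 the differences were 0.087 for Idi1, -0.037 for Fdft1, -0.025 for Sqle, -0.041 for Cyp51 and 0.0052 for Hmgcs1.

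Hmgcs1 acts earliest of the 7, as the cytosolic HMG-CoA synthase on the way to mevalonate. In exposed skin its lowest, median and highest log2 signals were 6.23, 6.56 and 6.88, and in sham skin they were 6.36, 6.59 and 6.78. The sham range lay wholly inside the exposed range, whose ends were exposed animals 4 and 3. Its mean was 6.54 ± 0.23 (SD) in the 6 exposed rats and 6.57 ± 0.15 (SD) in the 8 sham rats, which puts the difference at -0.025 (95% interval -0.24 to 0.19). That interval corresponds to 0.846 to 1.14 times the sham level.

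Idi1 interconverts isopentenyl and dimethylallyl diphosphate, and Fdps joins them into farnesyl diphosphate, from which the routes to sterols, dolichol, ubiquinone and prenylated proteins part. Idi1 had lowest, median and highest values of 3.07, 3.64 and 4.04 in exposed skin, against 2.99, 3.49 and 3.89 in sham skin. It averaged 3.60 ± 0.34 in exposed rats (SD, n = 6) and 3.45 ± 0.35 in sham rats (SD, n = 8), which differed by 0.15 (95% interval -0.23 to 0.53). The groups overlapped over most of their range, with exposed animal 3 highest and sham animal 8 lowest.

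Fdps values of exposed animals spanned 4.05 to 4.66 with a median of 4.41, and those of sham animals spanned 3.42 to 4.70 with a median of 4.31. The sham minimum was animal 6, and the next sham animal was at 4.06. Means were 4.36 ± 0.24 for exposed (SD, n = 6) and 4.25 ± 0.40 for sham rats (SD, n = 8), 0.11 apart (95% interval -0.27 to 0.49). Without sham animal 6 the difference was -0.0097. The second Fdps probe differed by 0.12 and correlated with the first at r = 0.863 over the 14 animals (0.948 without sham animal 6).

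Fdft1, or squalene synthase, commits farnesyl diphosphate to sterols. Its values were 2.61, 2.98 and 3.18 (lowest, median, highest) in exposed skin and 2.76, 3.00 and 3.37 in sham skin. The top of the range was sham animal 1 and the bottom exposed animal 4. With means of 2.93 ± 0.20 for exposed (SD, n = 6) and 2.99 ± 0.20 for sham rats (SD, n = 8), Fdft1 differed by -0.058 (95% interval -0.29 to 0.18).

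Sqle is the squalene epoxidase, a rate-limiting oxygen-dependent enzyme of the sterol route. It had the smallest difference of the 7 genes, -0.0054 (95% interval -0.21 to 0.20), with means of 3.92 ± 0.16 for exposed (SD, n = 6) and 3.92 ± 0.18 for sham rats (SD, n = 8). Exposed animals lay at 3.62, 3.94 and 4.06 and sham animals at 3.74, 3.90 and 4.23 (lowest, median, highest). Exposed animal 4 was again the lowest and sham animal 1 the highest.

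Cyp51, the lanosterol demethylase, acts early after the sterol rings are closed. Its log2 signal was 1.82, 2.34 and 2.63 (lowest, median, highest) in exposed animals, against 2.00, 2.28 and 2.64 in sham animals. The same animals stood at the ends as for Sqle and Fdft1. It averaged 2.27 ± 0.28 in exposed rats (SD, n = 6) and 2.29 ± 0.26 in sham rats (SD, n = 8) and differed by -0.024 (95% interval -0.32 to 0.28).

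Insig1, the endoplasmic reticulum anchor of the Scap and SREBP complex and itself an SREBP target, is the regulator of the group. It ranged from 0.45 to 1.16 in exposed animals with a median of 1.05, and from 0.038 to 1.27 in sham animals with a median of 0.83. Exposed animal 3, among the highest for the enzymes, was the lowest exposed animal for Insig1, and sham animal 6 was the lowest of all. Insig1 averaged 0.93 ± 0.27 in exposed rats (SD, n = 6) and 0.76 ± 0.41 in sham rats (SD, n = 8). Its difference of 0.17 was the largest of the 7 in size (95% interval -0.22 to 0.56) and was 0.068 without sham animal 6.

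**Figure D1:**
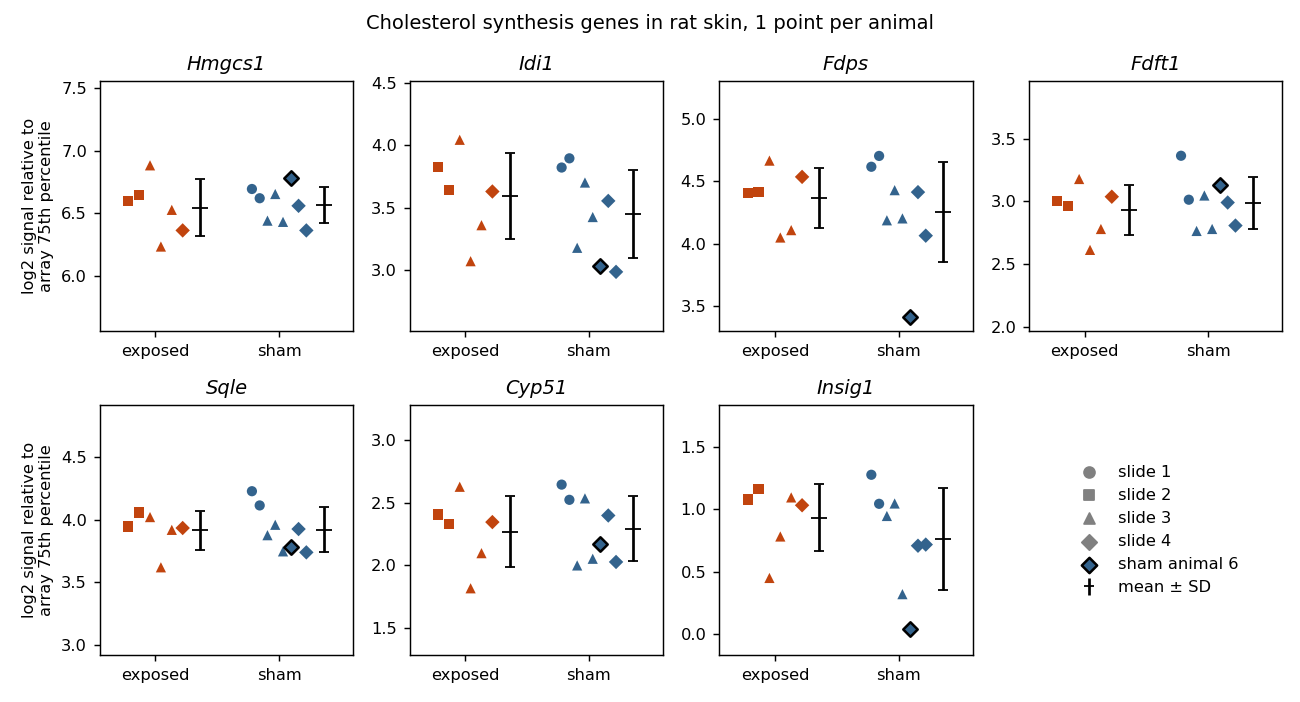
Log2 signal relative to the array's 75th percentile for each of the 7 genes, 1 point per animal, exposed left of sham, with marker shapes for the 4 slides, a black outline for sham animal 6 and bars for mean ± SD (n = 6 exposed, n = 8 sham). Each panel spans the same number of log2 units. Exposed and sham points overlap in every panel, and sham animal 6 is the lowest point for Fdps and Insig1.

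The sizes of these differences varied with slide. Within slide 3, the balanced one, the differences of the 7 genes lay between -0.015 (Cyp51) and 0.057 (Idi1). Within slide 4 the lone exposed animal was compared with 3 sham animals that include sham animal 6, and the differences were 0.57 for Fdps, 0.54 for Insig1, 0.44 for Idi1 and -0.20 for Hmgcs1. With slide as a block in the fit they were 0.19 for Fdps, 0.18 for Insig1, 0.18 for Idi1 and -0.042 for Hmgcs1. Within slide 4 the spread came from the sham animals alone, so that fit says nothing of how exposed animals vary. The smallest adjusted limma p of any of the 7 genes over all 26 alternative settings was 0.746. Slide itself, tested in limma with group in the model, gave 0 of the 7 genes past an adjusted p of 0.05, as it gave 0 of all genes (0%). The smallest unadjusted slide p was that of Sqle (limma, 0.0874), whose slide 1 arrays averaged 4.17. For each of the 7 genes the 2 sham arrays of slide 1 had the highest mean of any slide and group. The other means on slide 1 were 6.66 for Hmgcs1, 3.86 for Idi1, 4.66 for Fdps, 3.19 for Fdft1, 2.58 for Cyp51 and 1.16 for Insig1. Slide 1 held sham arrays only, so slide and group cannot be told apart there.

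No other enzyme of cholesterol synthesis passed the limma threshold either. Of 21 listed enzymes 20 were measured, 6 of them among the 7 genes above. Of the other 14, 0 passed in either direction, exposed skin was higher in 9 and lower in 5, and the median difference was 0.034. Over all 20 enzymes exposed skin was higher in 11 and lower in 9, with a median of 0.024. Over all genes the median was -0.019, with 8000 higher and 10611 lower. Lss, which closes the sterol rings, had the largest value, 0.24 (95% interval -0.18 to 0.66), and Msmo1, a sterol methyl oxidase, differed by 0.076 (95% interval -0.13 to 0.28). Dhcr7, the enzyme of the last step in a branch of the route, had the smallest p of the list with a difference of -0.16. Mvd, the mevalonate diphosphate decarboxylase, differed by 0.015 and Sc5d, a sterol desaturase, by -0.13. Single animals moved these values: without sham animal 6 Lss differed by 0.15, Msmo1 by 0.050 and Mvd by -0.018, and with 1 animal left out at a time Sc5d lay between -0.27 (without exposed animal 2) and 0.0028 (without exposed animal 6).

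Genes that control SREBP2 or take up cholesterol were also without a call. Of 21 listed, 19 were measured, exposed skin was higher in 8 and lower in 11, with a median of -0.032 and 0 called. Srebf2, the gene of SREBP2, averaged 1.62 ± 0.20 in exposed rats (SD, n = 6) and 1.78 ± 0.10 in sham rats (SD, n = 8), and its difference of -0.16 did not pass (limma adjusted p = 1). Stard4, a cholesterol transfer protein and SREBP2 target, was at -0.29 ± 0.15 in exposed rats (SD, n = 6) and -0.52 ± 0.24 in sham rats (SD, n = 8), 0.23 apart (95% interval -0.012 to 0.47). Scap differed by -0.042 (-0.020 without sham animal 6) and Insig2, the second Insig anchor, by -0.12 (-0.057 without exposed animal 5). No probe was matched to Srebf1.

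**Figure D2:**
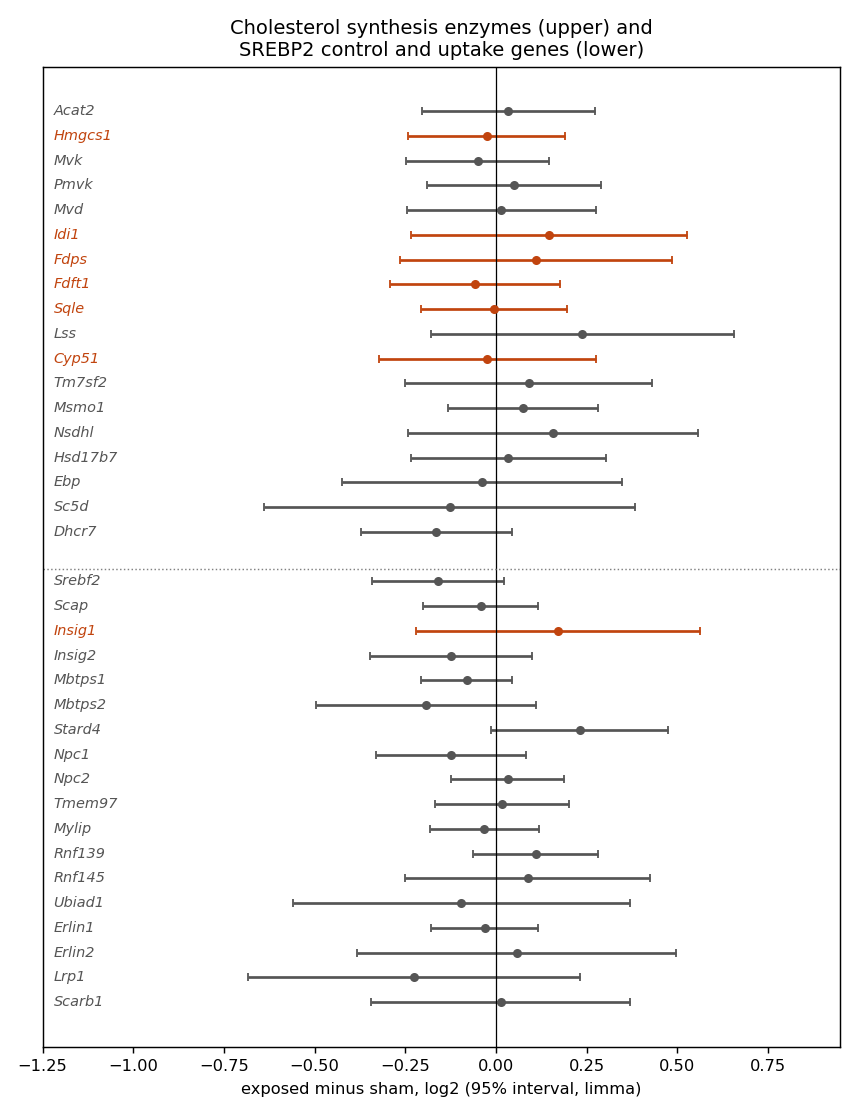
Exposed minus sham difference in log2 signal with its 95% limma interval for 18 cholesterol synthesis enzymes in pathway order (upper block) and 18 SREBP2 control and uptake genes (lower block), the 7 genes described here in orange. Every interval in both blocks includes 0.

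Neighbouring lipid routes held no call either. For the isoprenoid branches that leave the pathway at farnesyl diphosphate, 11 of 12 listed genes were measured, 4 higher and 7 lower, with a median of -0.0059. Fntb, a farnesyltransferase subunit, differed by -0.094 and Zmpste24, a protease of prenylated proteins, by 0.13. Among SREBP1 targets of fatty acid synthesis, 17 of 19 were measured, 10 higher and 7 lower, with a median of 0.015. This list also holds Mvd, counted above among the cholesterol enzymes. Elovl6, a fatty acid elongase, differed by -0.26, fatty acid synthase Fasn by -0.13 and the desaturase Scd by 0.14. LXR targets and efflux genes, which respond to surplus sterol, numbered 10 measured of 14, with 2 higher and 8 lower and a median of -0.058. The transporter Abca7, the 1 gene of these lists with an unadjusted limma p under 0.05, differed by -0.16, the phospholipid transfer protein Pltp differed by -0.41 and Abca1, the main cholesterol exporter, by -0.065. Of 15 genes of sterol storage and oxysterol formation, 13 were measured, 4 higher and 9 lower, with a median of -0.031. Ch25h, which hydroxylates cholesterol to an oxysterol, differed by 0.51, and by 0.23 without exposed animal 1, the highest. Cyp27a1, a mitochondrial sterol hydroxylase, differed by -0.24. Without sham animal 6 the differences were -0.37 for Cyp27a1, 0.24 for Scd and -0.11 for Abca1. In each of these 4 lists 0 genes passed the adjusted threshold.

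The SD within groups, from 0.17 (Sqle) to 0.36 (Insig1), was larger than the difference between group means for each of the 7 genes. From the lowest to the highest animal the signal changed 1.52-fold for Sqle, 1.57-fold for Hmgcs1, 1.69-fold for Fdft1, 1.78-fold for Cyp51, 2.08-fold for Idi1, 2.36-fold for Insig1 and 2.44-fold for Fdps. The SD over the 14 animals was 0.16 for Sqle, 0.18 for Hmgcs1, 0.20 for Fdft1 and 0.26 for Cyp51, and the median gene had an SD of 0.24. Idi1, Fdps and Insig1 varied more, with SDs of 0.34, 0.34 and 0.36, and 72%, 70.7% and 74.1% of all genes had a smaller one. Without sham animal 6 the SD of Fdps was 0.23, that of Insig1 was 0.28 and that of the median gene 0.20, and 58.2% and 70.4% of all genes had a smaller SD than Fdps and Insig1. The mean of the 7 genes, each centred on its own mean, ran from -0.31 in exposed animal 4 to 0.32 in sham animal 1. Exposed animals 3, 1, 2 and 6 and sham animals 1, 2, 4 and 7 lay above 0, and exposed animals 5 and 4 and sham animals 3, 5, 8 and 6 lay below it.

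The 6 enzymes varied together from animal to animal, and Insig1 followed them less closely on this scale. Pearson r was computed for all 21 pairs over the 14 animals, and 15 pairs passed a two-sided permutation test after Benjamini-Hochberg adjustment over the 21 (14 by Spearman's rho). Of the 15 pairs of enzymes 13 passed by Pearson and 13 by Spearman, with a mean r of 0.69 and a range from 0.169 to 0.891. The closest pair was Idi1 and Cyp51 with r = 0.891 and rho = 0.864 (permutation p = 4e-05 and 0.00011, adjusted p = 0.00021 and 0.000455). Leaving out the animals farthest from the median of Idi1, sham animals 6 and 8, gave r = 0.942. Fdft1 and Cyp51 reached r = 0.879 and rho = 0.864 (permutation p = 2e-05 and 0.00013), Sqle and Cyp51 r = 0.864 and rho = 0.873 (permutation p = 4e-05 and 9e-05), and Idi1 and Fdps r = 0.856 and rho = 0.899 (permutation p = 1e-05, the smallest these resamples can give, and 4e-05). All of these held with 2 animals left out, at r = 0.809, 0.769 and 0.917. Over all 15 enzyme pairs the mean r with 2 animals left out was 0.662. Of the 13 enzyme pairs above 0.5 over all animals 10 were also above 0.5 with 2 left out, and Fdps with Fdft1 was above 0.5 only with 2 left out (r = 0.842, against 0.366 over all animals). Hmgcs1 with Idi1 (r = 0.573, rho = 0.547, adjusted permutation p = 0.0464 and 0.0639) gave r = 0.301 without exposed animals 3 and 4. Without sham animal 6 the pair gave r = 0.840, so its size depended on which animals were kept.

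Hmgcs1 and Fdps correlated at r = 0.169 (rho = 0.420) over all 14 animals and at r = 0.732 without sham animal 6, in which Hmgcs1 was the highest and Fdps the lowest of the sham values. Without that animal the mean r of the enzyme pairs was 0.851 (0.732 to 0.945). Within slide 3, the 6 animals of the only slide large enough, it was 0.917 (0.754 to 0.991). In the same 6 animals the 6 enzymes were lower where array signal was higher (r from -0.926 to -0.524) and where macrophage markers were higher (r from -0.984 to -0.682), and the part of these measures in the pairs was not tested. With values centred on each slide the mean r of the enzyme pairs was 0.65 (0.012 to 0.914). Slides 1 and 2 held 2 arrays of 1 group each and slide 4 held 4, too few for a correlation. Under quantile normalization the mean r of the enzyme pairs was 0.736, in the authors' deposited table it was 0.756, and after normexp background correction it was 0.686.

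The 6 pairs of Insig1 with the enzymes had a mean r of 0.30, from -0.15 with Hmgcs1 to 0.605 with Fdps. The pairs with Sqle (r = 0.575, rho = 0.609, adjusted permutation p = 0.0464 and 0.0408) and with Fdps (r = 0.605, adjusted permutation p = 0.0395; rho = 0.363, adjusted permutation p = 0.24) passed by at least 1 measure. With 2 animals left out, Insig1 and Sqle gave r = 0.591 without sham animal 1 and exposed animal 4, and Insig1 and Fdps gave 0.201 without exposed animal 4 and sham animal 6, so the second rests on those animals. Within slide 3 the mean of the 6 pairs was -0.15 and without sham animal 6 it was 0.285. Scaling moved this figure: under quantile normalization the mean was 0.589 and in the authors' deposited table it was 0.609. Whether Insig1 pairs differ from enzyme pairs was not tested.

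**Figure D3:**
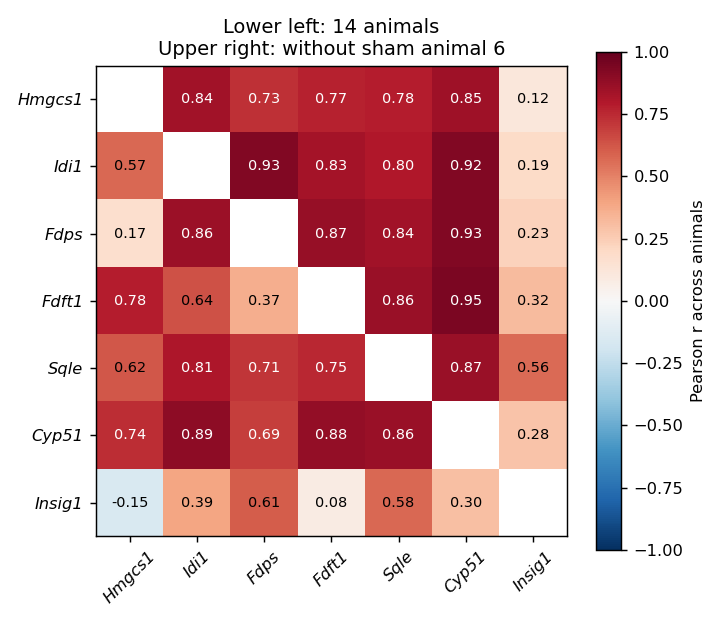
Pearson r across animals for each pair of the 7 genes, over 14 animals in the lower left and without sham animal 6 (13 animals) in the upper right, coloured from -1 (blue) to 1 (red). The 6 enzymes form a block of high values, most evenly in the upper right, and the Insig1 row and column are paler.

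Among all other genes with a symbol, the 10 whose profile lay closest to the mean profile of the 7 over the 14 animals included further enzymes of sterol synthesis. Likeness was the Pearson r with that mean profile and is a description, since genes of 1 array share its scaling. Acat2, the acetyl-CoA acetyltransferase that starts the route, had r = 0.919, Msmo1 0.916, Mvd 0.898 and Tm7sf2, a sterol reductase, 0.896. Cyb5b, an outer mitochondrial cytochrome, had r = 0.878 and Aacs, the acetoacetyl-CoA synthetase that makes cytosolic precursor from ketone bodies, had 0.876. Hacl1 and Pecr, peroxisomal enzymes of fatty acid metabolism, had 0.849 and 0.848, and Rec8, a meiotic cohesin subunit, had 0.847. Of the 10, 6 were again among the 10 closest without sham animal 6, 6 with values centred on each slide, and 4 under quantile normalization.

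Of the 14 measured cholesterol enzymes outside the 7 genes, 10 (71.4%) had r above 0.5 with the mean profile, against 904 of the 18595 genes with a value on every array (4.86%), and their median r was 0.777 against 0.036. Without sham animal 6 the shares were 71.4% and 7.31%. Mvk, Pmvk, Lss, Nsdhl and Ebp, which act between mevalonate and the late sterols, were among the 10, with r from 0.703 (Ebp) to 0.800 (Pmvk). Among the exceptions were Hsd17b7, Sc5d and Dhcr7, with r of -0.114, -0.127 and -0.404. Without sham animal 6 their r was 0.191, -0.208 and -0.605, and with values centred on each slide it was 0.179, 0.171 and -0.373.

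Genes that control SREBP2 had a median r of 0.15, and 3 of 18 were above 0.5 (-0.051 and 6 of 18 without sham animal 6). Tmem97, a sterol-responsive membrane protein, had r = 0.793 and Stard4 0.683, while Srebf2 had 0.356 and Insig2 -0.261. Without sham animal 6 these 4 values were 0.747, 0.719, 0.543 and -0.352. The isoprenoid branch genes had a median r of 0.385, led by Pdss2, a subunit of the enzyme that makes the ubiquinone side chain, at 0.751, and Nus1, a subunit of the dolichol enzyme, at 0.734. Fatty acid synthesis genes, Mvd among them, had a median of 0.283. Thrsp, a lipogenic regulator, had r = 0.813, Acss2, an acetyl-CoA synthetase, 0.717, Fasn 0.316 and Scd 0.203. Without sham animal 6 the median was 0.404, with Thrsp at 0.788, Acss2 at 0.697, Fasn at 0.636 and Scd at 0.609. LXR and efflux genes had a median of -0.129, with Abca1 at -0.294, and the median of storage and oxysterol genes was 0.185. Without sham animal 6 these medians were -0.03 and -0.056, and Abca1 had -0.575.

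**Figure D4:**
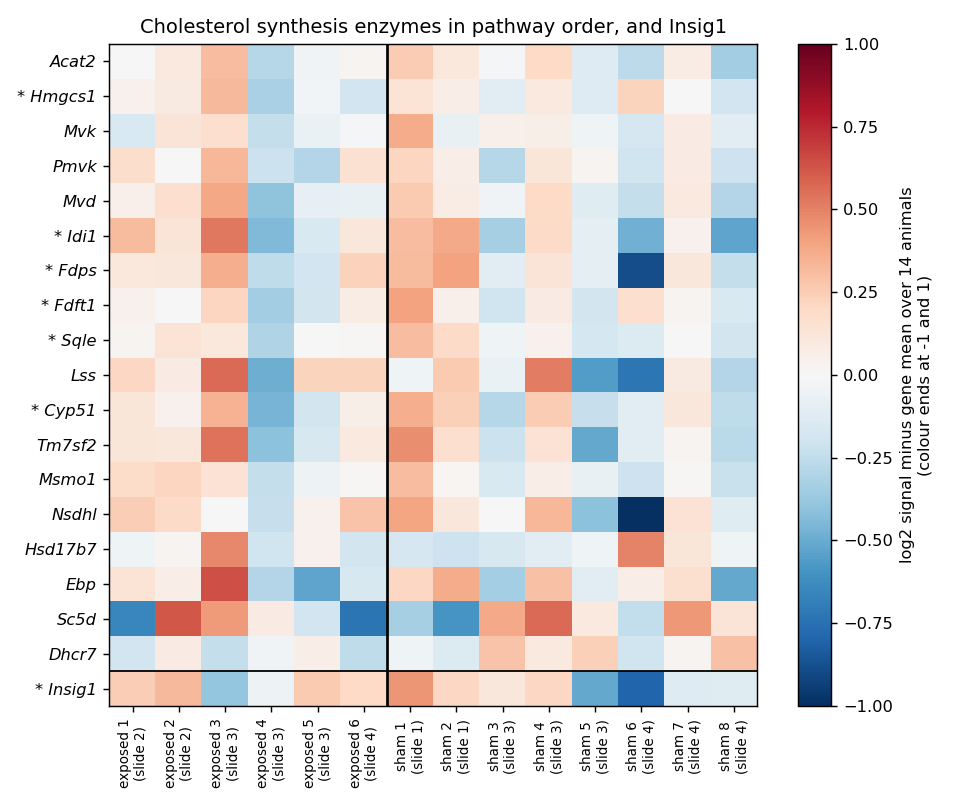
Log2 signal minus the gene's mean over 14 animals for 18 measured cholesterol synthesis enzymes in pathway order and Insig1 (asterisks mark the 7 genes), with exposed animals left of sham animals and colours ending at -1 and 1. Exposed animal 4 is blue and sham animal 1 red through most of the pathway. Among the genes that are not red in sham animal 1 are Hsd17b7, Sc5d and Dhcr7.

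**Figure D5:**
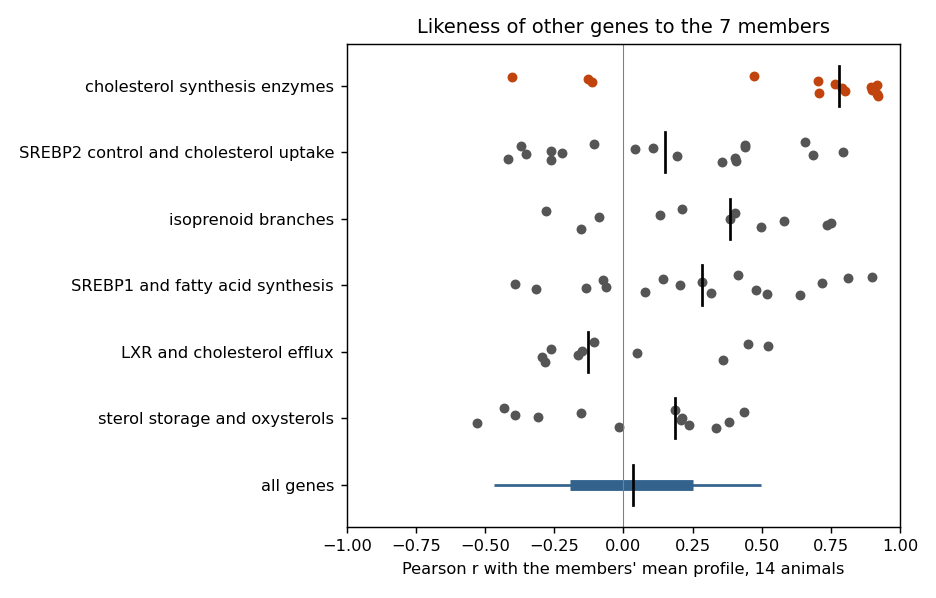
Pearson r of other genes with the mean profile of the 7 genes over 14 animals, 1 point per gene by list with a black line at the list's median, and for all genes the 25th to 75th percentile (thick bar) and the 5th to 95th percentile (thin line). Of the 14 cholesterol synthesis enzymes 10 gather above 0.7, with Hsd17b7, Sc5d and Dhcr7 below 0.

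The levels of the 7 genes were set against 9 lists of cell type markers and against array signal, 70 relations in all. None passed a two-sided permutation test after adjustment over the 70, by Pearson or Spearman, and r lay between -0.667 and 0.622. The lowest was Hmgcs1 with array signal (r = -0.667, rho = -0.653, permutation p = 0.00795 and 0.0133, adjusted p = 0.463 and 0.931; r = -0.405 without exposed animal 3 and sham animal 6). The highest was Insig1 with proliferation markers (r = 0.622, rho = 0.429, permutation p = 0.0198 and 0.128, adjusted p = 0.463 and 0.976), which was 0.175 without exposed animal 1 and sham animal 6. Sebaceous markers, of which 13 of 15 were measured, had a mean r with the 7 genes of 0.031, and their level ran from -0.18 to 0.21 in exposed and from -0.12 to 0.19 in sham animals. Taken singly, their r with the mean profile of the 7 ran from -0.286 to 0.792, with a median of -0.125. Of the 13, 3 (23.1%) were above 0.5, against 4.86% of all genes. Without sham animal 6 the median was 0.077 and 2 (15.4%) were above 0.5, against 7.31% of all genes. Skeletal muscle markers, 12 of 15 measured, had a mean r of 0.058 and ran from -1.84 to 4.74 in exposed and from -2.61 to 3.40 in sham animals, and hair follicle markers, 14 of 21 measured, had a mean r of -0.075. Adipocyte markers, 8 of 11 measured, had a mean r of 0.044 and -0.194 without sham animal 6. The mean r was 0.187 for basal epidermis, -0.167 for differentiated epidermis, 0.046 for Schwann cell, -0.248 for macrophage and 0.062 for proliferation markers. Without sham animal 6 it was 0.037 for basal epidermis, -0.239 for Schwann cell and -0.201 for proliferation markers. It was then -0.193 for differentiated epidermis, -0.29 for macrophage, 0.115 for sebaceous, 0.035 for skeletal muscle and -0.154 for hair follicle markers. With array signal the mean r was -0.026 over all animals and -0.297 without sham animal 6. The 70 r lay between -0.632 and 0.288 without sham animal 6. Within slide 3, over 6 animals and as a description, the 6 enzymes had a mean r of -0.885 with macrophage markers (-0.331 over all 14 animals) and of -0.792 with array signal (-0.122 over all 14), and Insig1 had 0.353 and 0.44. The mean r of the enzymes within that slide was -0.604 for differentiated epidermis, -0.559 for proliferation and -0.42 for Schwann cell markers, and lay between 0.033 and 0.342 for the other 5 lists.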

How the data were processed

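Total RNA of skin pieces from 6 exposed and 8 sham rats was labelled with Cy3, per the labels' protocols, and groups were taken from the treatment label. Spot intensity in the deposited scanner files is the signal after background subtraction by Agilent Feature Extraction 10.7.3.1, per the file headers, and is not scaled across arrays. A table the authors deposited gives 15168 probes as log2 values centred on each probe's median (column medians -0.0086 to 0.012). Its normalization is not given in the sources, and its columns correlated at 0.999 with quantile-normalized signals centred the same way, which settled scale and direction.

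From the files, 4259 control spots and outlier-marked spots were left out, log2 processed signals were centred on each array's 75th percentile and averaged over the spots of a probe. Probes had to be well above background on 6 or more arrays (21014 of 30367 probes). Accessions matched a symbol in the RefSeq table (GRCr8) for 17998 probes (59.3%), and the brightest kept probe stood for a gene (18611 genes). The array design refers to rn4, so promoter coordinates come from the RefSeq table alone. The comparison of groups used lmFit and eBayes of limma 3.58.1 (R 4.3.3) with no covariate, two-sided p-values, Benjamini-Hochberg adjustment across all genes and a threshold of 0.05, and was tested on simulated data. Correlations used 100000 permutations (NumPy 2.4.6). The precision rests on the number of arrays. Genes named were the 7, a fixed set of pathway genes, the 2 smallest p-values of each list and the 10 genes closest in profile. Some genes of the set are not reported here. Nus1, Pdss2, Tmem97, Thrsp, Acss2, Mvk, Pmvk, Nsdhl, Ebp and Hsd17b7 were named after their values were seen. The members and lists were chosen with earlier results of these data known. Alternatives covered background correction, normalization, dim probes, marked spots, probe choice, slide, array weights, array signal and each array left out. Normexp correction used the median spot signal with an offset of 50.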

Additional observations from a re-analysis of the deposited data

Results flagged for a closer look

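In 10 of 94 groups of values examined, the highest or lowest animal stood apart from the rest of its group by Dixon's criterion (the gap to the next animal as a share of the group's range), which chance passes in about 1 of 20 groups. Sham animal 6 accounted for 6 of the 10. The cause was not tested.

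Among the 7 genes, Sqle in exposed animal 4 lay at 3.62, the next exposed animal being at 3.92 (gap share 0.683). Exposed animal 3 was highest for Srebf2, at 2.00 with the next at 1.61 (gap share 0.671), and exposed animal 1 for Ch25h, at -1.61 with the next at -3.08 (gap share 0.726). Exposed animal 2 had the highest sebaceous gland score, 0.21 with the next at -0.042 (gap share 0.654).

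Sham animal 6 was lowest for Cyp27a1, at -1.71 with the next sham animal at -0.76 (gap share 0.849). It was also lowest for Awat2, at 2.44 with the next at 3.19 (gap share 0.557). Its marker scores were lowest for basal epidermis (-0.33, next -0.037, gap share 0.598), Schwann cells (-0.51, next 0.074, gap share 0.89) and proliferation (-0.56, next -0.084, gap share 0.727). Its log2 array signal was 9.65 with the next at 10.4 (gap share 0.579).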

How the results depend on the processing

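Of the 26 alternatives tried, the one within slide 4 had 1 exposed animal and bears little on calls. Calls are therefore given for the other alternatives only. None of these called any of the 7 genes or any gene of the pathway lists in limma. Over all genes limma also called 0 after normexp correction, under quantile normalization, in the authors' deposited table and with no filter on dim probes. In the main fit and these alternatives the absence of calls is therefore no result particular to the 7 genes. Calls over all genes under the remaining alternatives are not given here. Idi1 and Insig1 kept a positive difference under all 26 alternatives (0.023 to 0.44 and 0.0046 to 0.54). The near-zero differences changed sign: Sqle was 0.0047 under quantile normalization, 0.0071 in the authors' deposited table, 0.034 with slide as a block and 0.12 within slide 4, Cyp51 0.0022, 0.039 and 0.15 under quantile normalization, slide as a block and within slide 4, Fdft1 0.016 with the block and 0.062 within slide 4, Hmgcs1 0.039 within slide 3, and Fdps -0.038 with array weights. Leaving out each animal in turn gave -0.093 to 0.037 for Hmgcs1, -0.0097 to 0.17 for Fdps, -0.11 to 0.0058 for Fdft1, -0.034 to 0.054 for Sqle and -0.095 to 0.067 for Cyp51. Of these, Fdps turned without sham animal 6, Fdft1 without exposed animal 4, and Hmgcs1 without either of these and without exposed animal 6. Sqle turned without exposed animal 4 or sham animals 1 or 2, and Cyp51 without exposed animals 4 or 5 or sham animals 1, 2 or 4. The median difference of the cholesterol enzyme list ran from -0.059 (array weights) to 0.15 (within slide 4). Of the 10 genes closest in profile, 6 were shared with slide-centred values, 4 under quantile normalization and 6 without sham animal 6, the last chosen after seeing the data. Genes at an unadjusted p under 0.05 numbered 636, and 295 within slide 4, 2369 with array weights, 1037 with array signal as a covariate, 990 without exposed animal 3 and 1549 without sham animal 6. The causes were not tested. No paired analysis was possible because the labels give exposed and sham animals no shared numbers. The number of arrays limits the precision: the 95% intervals of the 7 genes reach up to 0.56 on the log2 scale.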
